A study of Mus musculus with 6 samples.

Results

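Small nucleolar RNA (snoRNA) genes that carry an AGO2 target peak were taken from the peak list of a cortex data set. A peak counted when its midpoint lay inside a nuclear gene span annotated as snoRNA on mm10. The rule found 79 of the 2197 deposited peaks (3.60%, exact 95% interval 2.86 to 4.46), in 79 of 1340 annotated nuclear snoRNA genes, with 1 peak in each gene. All animals had a conditional Spy3-AGO2 allele (labelled Spy3-Ago2), whose tagged Argonaute protein is captured on a SpyCatcher3 resin, and VGLUT2-Cre, a driver named for a vesicular glutamate transporter. Cortex was taken at postnatal day 14, and pyramidal neurons, which are excitatory, are the labelled cell type. The 6 libraries form 3 groups of 2, which are AGO2-bound target RNA, AGO2-bound miRNA and, as reference, input RNA from whole lysate, all of the same genotype and age. Which cells carry the tag is set by the driver, and the input holds RNA of the whole tissue. Reads were 100 bases long at most, enough to span most C/D snoRNAs.

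Target and input libraries entered here only through the 1 peak list, which has positions and strands but no heights, so no peak has a value per library or a replicate check. Use of the input in peak calling is not stated, and a listed peak alone is therefore no proof of binding by AGO2. Among marker genes of cortical cell types, 3 of 5 of excitatory neurons carried peaks, with Slc17a7 and Camk2a among them, as did 2 of 3 of oligodendrocytes, with Mbp among them, and 1 of 3 of astrocytes, Slc1a2, with 45 peaks. Inhibitory neuron and microglia markers had 0 peaks in 3 genes each. Their part in the snoRNA peaks was not tested.

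As background, snoRNAs are short nuclear RNAs that steer modification enzymes to other RNAs by base pairing. C/D box snoRNAs, whose mouse symbols begin with Snord, bind Nop56, Nop58 and fibrillarin and direct ribose methylation of ribosomal RNA. H/ACA box snoRNAs, with symbols beginning with Snora, bind dyskerin and direct pseudouridylation. The scaRNAs (Scarna) guide modification of spliceosomal RNAs in Cajal bodies. Most mammalian snoRNAs lie in introns of host genes and are cut free after splicing, with ends set by the proteins that protect them. Some are known to give rise to shorter RNAs, a few of which are annotated as miRNAs.

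In these data that last point could be looked at only by position, through miRNA genes that overlap snoRNA or scaRNA genes. Whether the miRNAs come from those RNAs was not tested. The mature miRNAs below lie over a snoRNA or scaRNA gene and were counted in at least 1 library. They are shown with the seed (bases 2 to 8) in capitals, as RefSeq gives them on GRCm38.p6, the assembly of mm10.
miR-664-3p: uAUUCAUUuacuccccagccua
miR-664-5p: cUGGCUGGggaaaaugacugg
miR-3084-3p: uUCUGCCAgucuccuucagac
miR-1843a-5p: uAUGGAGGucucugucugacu
miR-1843a-3p: uCUGAUCGuucaccuccauaca
miR-1843b-5p: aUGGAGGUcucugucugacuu
The 6 seeds are all different, but miR-1843a-5p and miR-1843b-5p are nearly the same sequence, shifted by 1 base. miR-664 lies over Snora36b, miR-3084 over Snora19, miR-1843a over Scarna3b and miR-1843b over Scarna3a.

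Among genes whose symbol gives their class, peaks lay on C/D box genes and on no H/ACA box gene. Of 93 annotated Snord genes, 40 carried a peak (43.0%, exact 95% interval 32.8 to 53.7). Of 39 Snora genes, 0 did, which allows a share of up to 7.69% for counting error (exact upper bound 9.03%). The other 39 peaks lay in 1208 snoRNA genes whose symbols give no class (3.23%, exact 95% interval 2.31 to 4.39). Across all 49943 nuclear genes of the table, 2.29% held a peak midpoint. The share was 5.90% over all snoRNA genes, against 4.30% of protein-coding genes, 0.699% of lncRNA genes, 0.797% of snRNA genes, 2.70% of tRNA genes and 0 of 1228 miRNA genes. These shares have no test: gene spans differ in length by orders of magnitude, and the abundance of each RNA was not measured here.

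Scarna genes are typed as guide RNA in the table, outside the snoRNA type. Of 41 guide RNA genes, 1 carried a peak, the unnamed gene Gm22009 of 343 nt, and none of the Scarna genes did. The 79 genes therefore include no gene named Scarna.

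Class went together with gene length. Snord genes had a median annotated length of 77 nt and Snora genes of 121 nt. Of all snoRNA genes up to 100 nt long, 75 of 400 carried a peak (18.8%, exact 95% interval 15.0 to 22.9), against 4 of 940 longer ones (0.426%, 0.116 to 1.09). The 100 nt limit was set after the data were seen. Only 4 Snora genes were that short, and 0 of them carried a peak. Of the 6 Snord genes over 100 nt, 1 did. With so few short Snora and long Snord genes, class and length cannot be told apart. Among genes without a class in their symbol, 36 of 309 up to 100 nt carried a peak (11.7%), against 3 of 899 longer ones (0.334%).

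**Figure D1:**
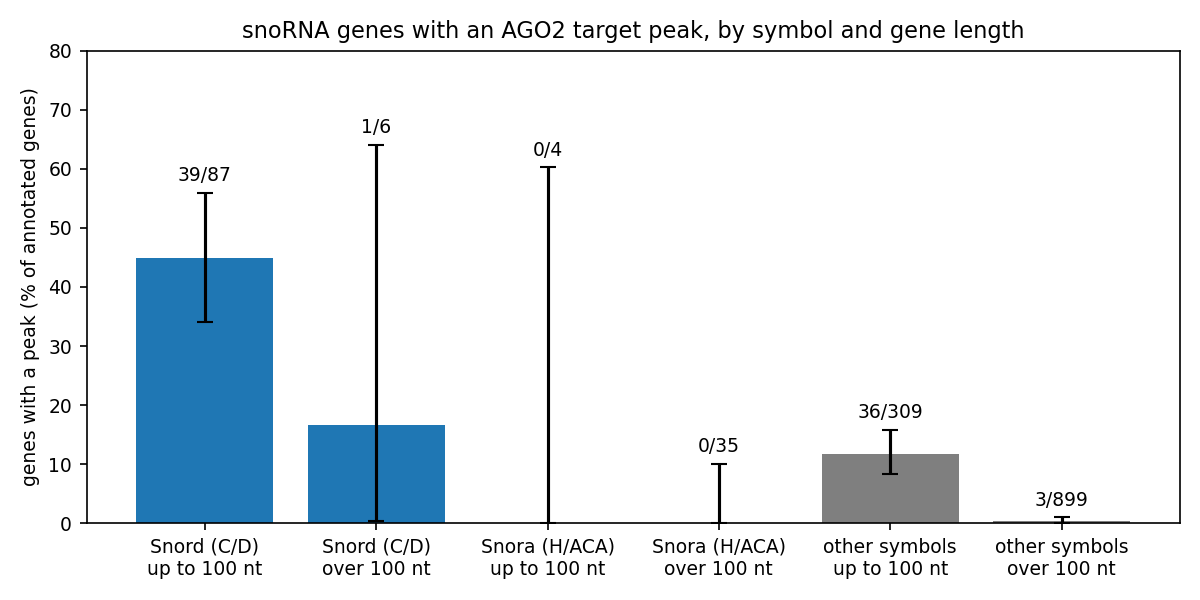
Share of annotated nuclear snoRNA genes with a peak (vertical axis, percent), by symbol class and by annotated length up to or over 100 nt. Bars are shares, whiskers exact 95% intervals over genes, and the numbers give genes with a peak over all genes; short Snord genes stand at 44.8% and both Snora bars at 0.

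In finer classes of length, 16 of 28 genes up to 60 nt and 27 of 49 genes of 61 to 70 nt carried a peak (57.1% and 55.1%). The share was 9.79% (19 of 194) for 71 to 80 nt, 27.0% (10 of 37) for 81 to 90 nt and 3.26% (3 of 92) for 91 to 100 nt. The 71 to 80 nt class holds many of the repeated genes inside Snhg14, which are described further on. Snord genes with a peak had a median length of 64 nt and those without one 91 nt. Part of the second value comes from the 17 Snord116 copies, none of which had a peak. Without them, 52.6% of the 76 remaining Snord genes carried one (exact 95% interval 40.8 to 64.2).

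Some hosts hold both classes in 1 gene span, which gives a comparison within a host. There were 4 hosts with a named Snord and a named Snora gene. Eif4a2, a translation helicase gene, held Snord2 with a peak and Snora81 without one. Rps12, a ribosomal protein gene, held Snord100 with a peak and Snora33 without one. The lncRNA Snhg12 held Snord99 with a peak and Snora16a, Snora44 and Snora61 without one. In Ncl, which encodes nucleolin, neither Snord82 nor Snora75 carried a peak. In these 4 hosts together, 3 of 4 Snord genes and 0 of 6 Snora genes did.

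The peaks had a narrow range of widths. Their median width was 69 nt, with quartiles of 65 and 74.5 nt and extremes of 21 and 100 nt, against a median of 52 nt for the other 2015 nuclear peaks, with quartiles of 30 and 82 nt and extremes of 15 and 407 nt. A width of 60 to 80 nt was found in 66 of the 79 snoRNA peaks (83.5%) and in 325 of the others (16.1%). Only 1 snoRNA peak was 30 nt wide or less (1.27%), against 507 of the others (25.2%). No snoRNA peak exceeded 100 nt, against 328 of the others (16.3%).

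**Figure D2:**
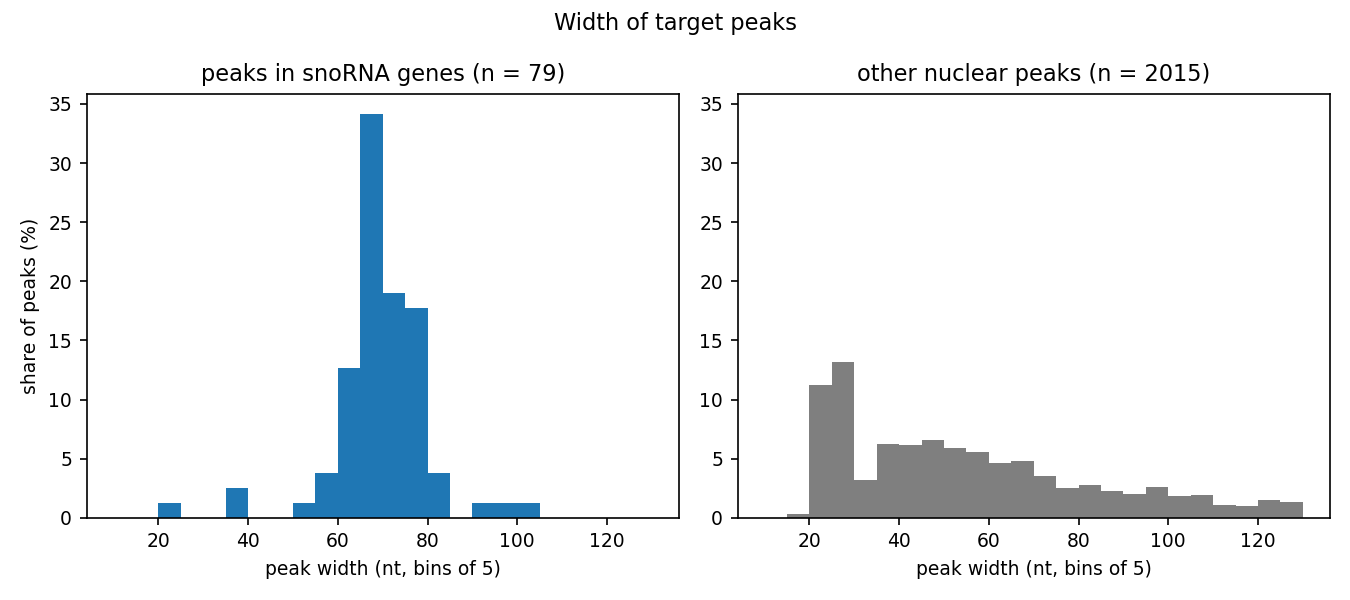
Widths of peaks in snoRNA genes (left) and of all other nuclear peaks (right), as percent of the peaks of each set in bins of 5 nt. Of the snoRNA peaks, 83.5% lie between 60 and 80 nt, against 16.1% of the others, which are spread from about 20 nt upward, and those over 130 nt are not drawn but count in the percentages.

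Most peaks covered nearly the whole snoRNA gene. The median peak covered 96.2% of its gene, 67 of 79 peaks (84.8%) covered at least 90%, and 18 (22.8%) covered every base. Peak width over gene length had a median of 0.971. The median midpoint lay at 49.4% of the gene, read from the 5′ end along the strand of the peak, with quartiles of 45.1% and 51.4%. Both peak ends lay within 5 nt of the annotated ends in 46 genes (58.2%). Other small RNA genes with peaks looked different in this respect, given as values without a test. The 11 tRNA genes with a peak were covered to a median of 49.3% and the 8 genes typed as snRNA to 52.3%. Of these, 3 and 1 were covered to at least 90%. The 1 typed as snRNA was Snord73b, a C/D gene by its symbol, covered to 94.4%, so no other snRNA gene reached 90%. The 3 peaks in Y RNA genes covered 25.7% to 33.3%.

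The snoRNAs inside Rpl13a, the gene of a ribosomal protein of the large subunit, illustrate the usual fit. Snord32a (chromosome 7, 45127383 to 45127463) is annotated with 81 nt and its peak ran from 45127386 to 45127462, 77 nt on the minus strand. Snord34 (45126603 to 45126668) had a peak of 66 nt that was offset by 1 nt at each end. Snord35a (45126347 to 45126435) had a peak of 82 nt, 2 nt inside the 5′ end and 5 nt inside the 3′ end. Snord33, between them, had none. In Rpl7a, all 4 snoRNA genes inside (Gm23969 and 3 genes with LOC symbols) carried peaks of 66 to 71 nt on genes of 68 to 74 nt, each starting 2 or 3 nt inside the annotated 5′ end.

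Over the whole set, the 3′ ends fitted the annotation more closely than the 5′ ends, a difference found in the Snord genes only. In 72 of 79 genes (91.1%) the peak ended within 5 nt of the annotated 3′ end, and in 48 (60.8%) it began within 5 nt of the annotated 5′ end. In the 39 genes of other symbols both ends fitted alike. Their median offset was 2 nt (quartiles 1 and 3) at the 5′ end and -2 nt (quartiles -3 and 0) at the 3′ end, both medians inside the gene. The early starts lay mainly in named C/D genes: 21 of 40 Snord peaks (52.5%) began more than 5 nt upstream of the annotated start, against 1 of 39 peaks in the other genes (2.56%). In those 21 genes the peak started 7 to 23 nt upstream (median 10 nt) and ended between 3 nt inside and 3 nt beyond the annotated end. Their annotated lengths were 45 to 66 nt (median 59) and their peaks 63 to 78 nt wide (median 72). All 21 have an older clone name of the MBII series as a synonym in the table, against 5 of the other 19 Snord genes with peaks. The other 19 were annotated with 57 to 137 nt (median 74) and had peaks of 36 to 90 nt (median 65). The cause of this offset was not tested.

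The Snord genes with the highest ratio of peak width to gene length were all among these 21. Snord68 (chromosome 8, 123103058 to 123103105), inside Rpl13, is annotated with 48 nt and had a peak of 72 nt, 1.50 times as long, that began 23 nt upstream. Snord42a (chromosome 11, 78181302 to 78181346), inside Rpl23a, had a peak of 63 nt on 45 nt, a ratio of 1.40. Snord91a, inside Tsr1, a gene of ribosome maturation, had a ratio of 1.28 (77 nt on 60 nt), as had Snord45c, inside Rabggtb (78 nt on 61 nt). Among genes without a class in their symbol the ratio was 1.02 for LOC115487678 and 0.987 for Gm25229, and only AF357359, described further on, exceeded these by much, at 3.33.

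**Figure D3:**
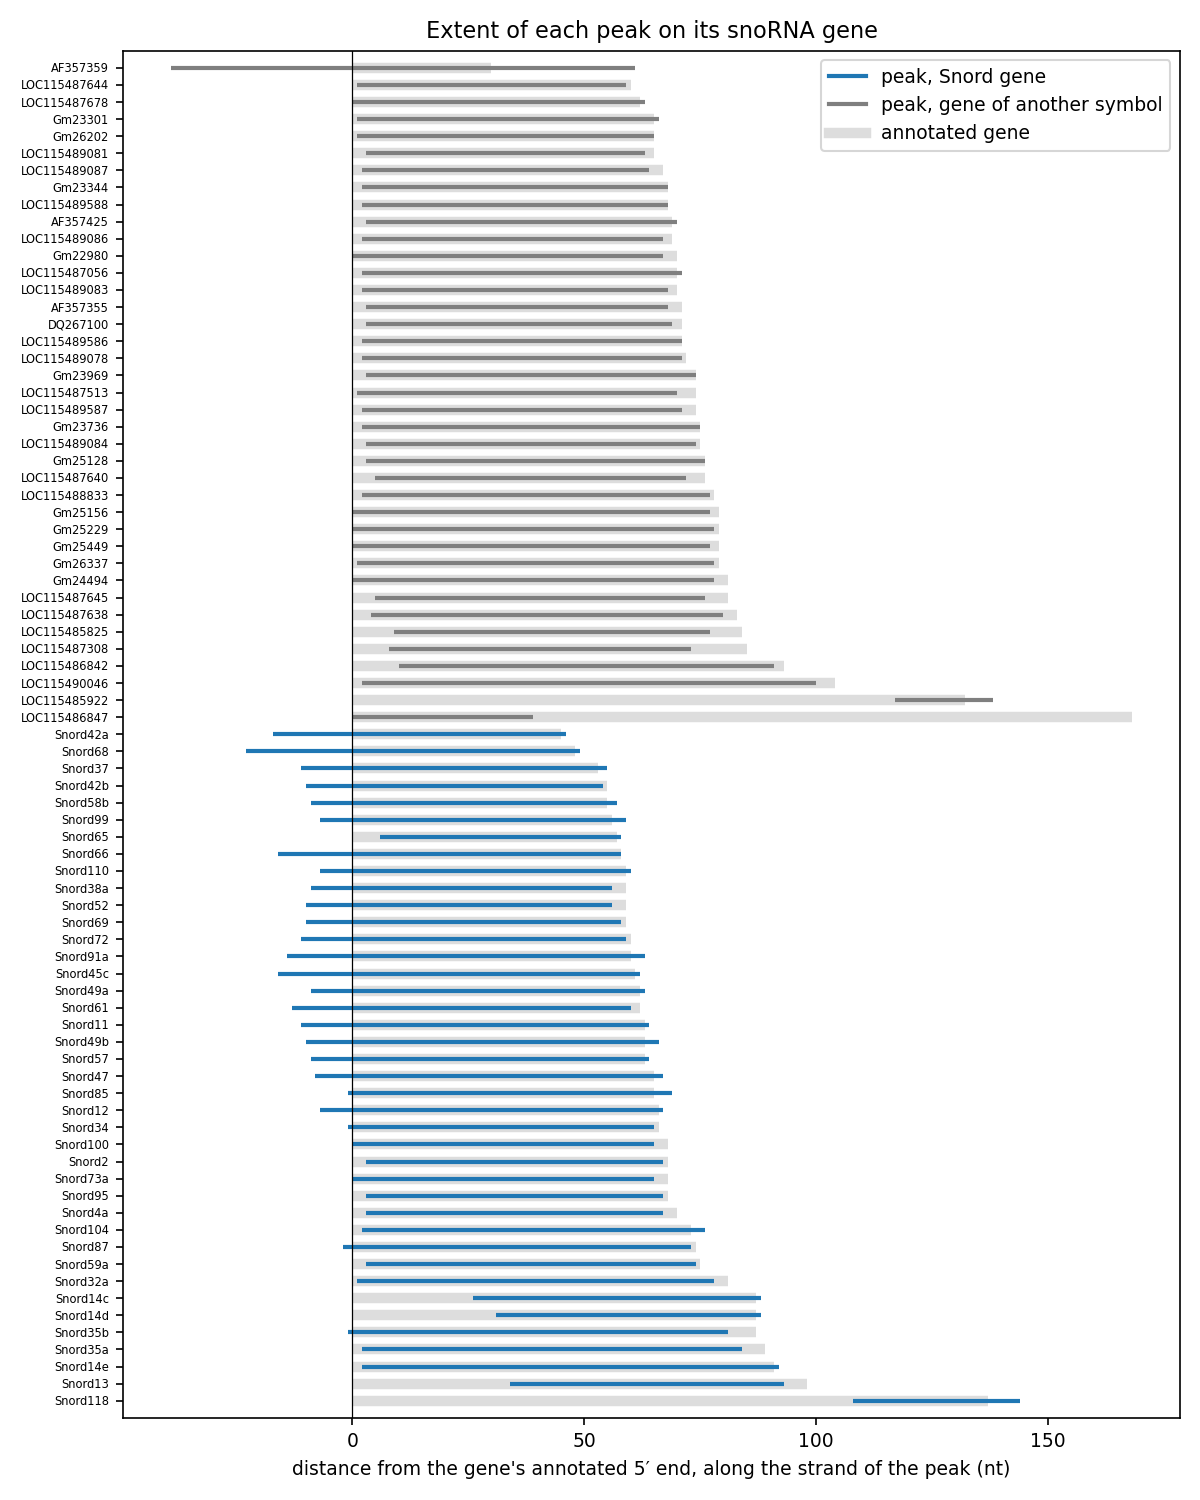
Extent of each of the 79 peaks (coloured lines) on its annotated snoRNA gene (grey bars), in nt from the annotated 5′ end along the strand of the peak; 1 gene per row, other symbols above and Snord genes below, each sorted by length. Most lines match the grey bar; 21 Snord lines reach to the left of 0 by more than 5 nt, and a few long genes are covered at 1 end only.

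In 12 genes the peak covered less than 90%. Some of them belong to a list of snoRNAs grouped under processing of the ribosomal precursor RNA. It was drawn up from general knowledge with earlier results of these data known, and the role of each gene was not checked. Of 10 annotated genes on this list, 5 carried a peak, and 4 of these peaks were partial. That count is near the 43.0% of all Snord genes, so it does not set the list apart. Snord118 (chromosome 11, 69073426 to 69073562), known from frog eggs to be needed for large-subunit RNA, has its own promoter; its peak of 36 nt covered 21.2% of 137 nt and ended 7 nt beyond the annotated 3′ end. Snord13 (chromosome 8, 31149861 to 31149958), another independently transcribed C/D RNA, had a peak of 59 nt over the 3′ side, 34 nt from the 5′ end, covering 60.2%. Snord14c, Snord14d and Snord14e, copies of a snoRNA of small-subunit RNA processing in introns of the chaperone gene Hspa8, had peaks of 62, 57 and 90 nt. The first 2 covered 70.1% and 64.4% from the 3′ side, and Snord14e was covered to 97.8%. Snord14a, on chromosome 7, had none, nor had Snord17, Snord22, Snora73a and Snora73b. The Snord14 copies are similar, and whether reads could be told apart between them was not tested.

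The remaining partial peaks fell on genes with LOC symbols and on Snord65 (89.5% of 57 nt covered). LOC115485922 (chromosome 13, 95332618 to 95332749), of 132 nt inside Zbed3, had the narrowest peak, 21 nt that began 117 nt from the 5′ end and ran 6 nt past the 3′ end, so that 15 nt overlapped. LOC115486847 (chromosome 7, 111076060 to 111076227), of 168 nt inside Eif4g2, was covered over its first 39 nt only. The Eif4g2 span held 4 other peaks, of 84 to 110 nt, on the same strand, so its snoRNA peak stood among peaks of the host. LOC115487308, inside the ribosome assembly gene Ppan, was covered to 76.5%, and LOC115485825, inside Nop58, to 81.0%. The opposite case was AF357359 (chromosome 12, 109650709 to 109650738), annotated with only 30 nt, under a peak of 100 nt, the widest of the set. LOC115490046 had the next widest at 98 nt on 104 nt and was the only gene over 100 nt that was covered almost whole.

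Host genes were the next question, since intronic snoRNAs share a transcript with them. A gene span held the whole snoRNA gene for 76 of the 79. Those hosts numbered 44, of which 33 are protein-coding and 11 lncRNA genes; 51 snoRNA genes lay in a protein-coding span, 29 in an lncRNA span and 4 in both kinds. The 3 without a host were Snord118, Snord13 and Gm23736, which lies on chromosome 12, 19083 bases past the end of Rian. Among all annotated snoRNA genes, 51 of 461 in protein-coding spans carried a peak (11.1%), against 25 of 335 in lncRNA spans only (7.46%) and 3 of 536 in no span (0.560%). Snhg14 alone holds 206 of the genes in lncRNA spans, and without it 21 of 129 carried a peak (16.3%, exact 95% interval 10.4 to 23.8), above the protein-coding share, so the order of these host types turns on that 1 host. The peaks ran on the strand of the host in 60 of 61 pairs of snoRNA and host whose strand could be read. The single exception was Srr, which overlaps Tsr1 on the opposite strand at Snord91a.

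Of the hosts, 33 had no peak outside small RNA genes, and 11 had at least 1. Ribosomal protein genes made up 11 of the hosts, and none of these 11 had a peak outside small RNA genes. Over all genes, 4.30% of protein-coding and 0.699% of lncRNA genes held such a peak. None in 11 is near that share and does not set these hosts apart. Over all 28 ribosomal protein genes that hold a snoRNA gene, 23 of 55 snoRNA genes carried a peak (41.8%). The share was 5.90% over all snoRNA genes and 11.1% over those in protein-coding spans, most of which have no class in their symbol. Among named Snord genes it was 43.0%, and 53.4% (31 of 58) for those in protein-coding spans. The ribosomal protein hosts were thus not above named C/D genes. In 17 of the 28, among them Rpl3, Rpl5, Rps2 and Rps3, no snoRNA gene carried a peak. Of 5 listed hosts that encode translation factors or the ribosomal scaffold Rack1, 3 had a peak-bearing gene: Eef2 (Snord37), Eif4a2 (Snord2) and Rack1 (Snord95). Eif4a1 and Eef1b2 had none, and over the 5 hosts 3 of 14 snoRNA genes carried a peak (21.4%, exact 95% interval 4.66 to 50.8). Nop56 (Snord57 and Snord110) and Nop58 (Snord11 and LOC115485825) encode core proteins of the C/D particles themselves. Of the hosts listed from general knowledge, 56 hold a snoRNA gene and 23 of them had a peak-bearing one. In these 56 hosts, 54 of 338 snoRNA genes carried a peak (16.0%), or 50 of 132 without Snhg14 (37.9%). The share was 5.90% over all snoRNA genes and 43.0% over named Snord genes.

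In 16 of the 44 hosts, 2 or more snoRNA genes carried a peak, covering 50 of the 79 genes. Gas5 (chromosome 1, 161034601 to 161038539), an lncRNA gene known for its many C/D snoRNAs, had 6 of 8, with peaks of 58 to 76 nt. Snhg1 (chromosome 19, 8723487 to 8726326) likewise had 6 of 8, with peaks of 60 to 71 nt. The 2 of Snhg1 without a peak were Snord22, of 126 nt, and LOC115489082, of 76 nt. All snoRNA genes inside carried a peak in Rpl7a (4), 2410006H16Rik, Hspa8, Rpl17 and Rpl23a (3 each). Rpl13a had 3 of 4, Nop56 2 of 5, Nop58 2 of 4, and Rabggtb and Rps12 2 of 3.

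**Figure D4:**
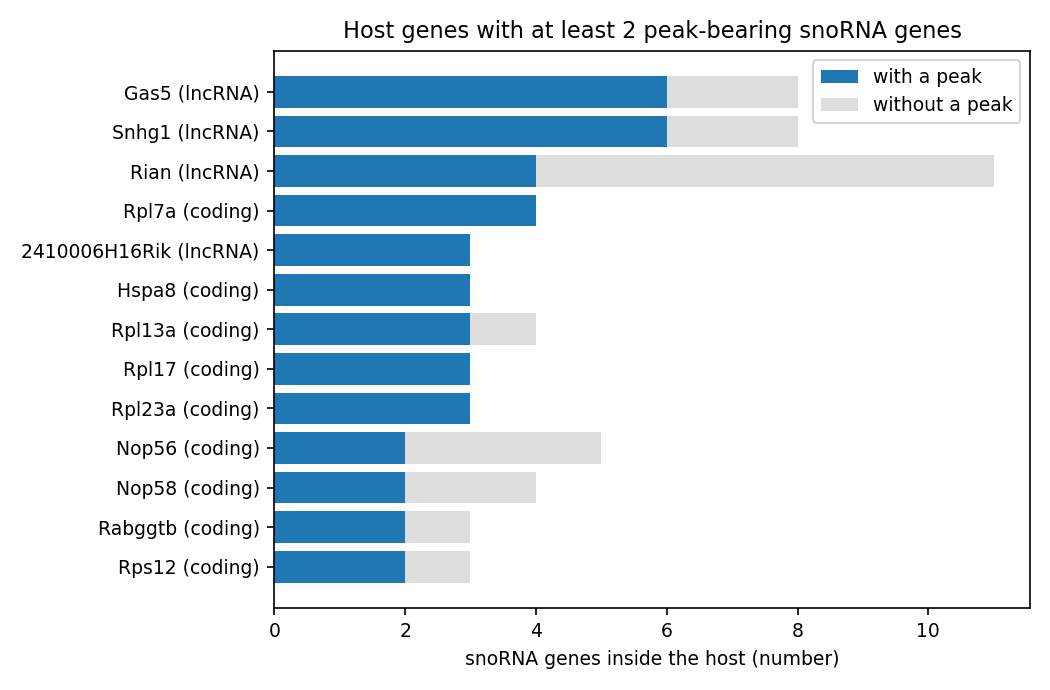
Number of annotated snoRNA genes inside hosts with at least 2 peak-bearing ones (horizontal axis), with a peak (blue) and without one (grey). Gas5 and Snhg1 have 6 of 8 each; Snhg14, with 4 of 206, is left out for scale, and some hosts are not shown.

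Hosts with at least 1 peak-bearing gene, leaving out Snhg14, also held 46 snoRNA genes without a peak. The 72 peak-bearing genes of these hosts had a median length of 68 nt, with 3 over 100 nt, against 79.5 nt for those without a peak, with 10 over 100 nt. Short snoRNA genes in the same host thus often had no listed peak. Examples are Snord33 in Rpl13a, Snord16a in Rpl4 and Snord96a in Rack1.

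The imprinted brain clusters behaved unevenly. Snhg14 (chromosome 7, 59272737 to 60450177) is the paternally expressed transcript of the Prader-Willi region and contains long arrays of repeated C/D snoRNAs. It held 206 annotated snoRNA genes, of which 4 carried a peak: Gm25156, Gm25229, Gm25449 and Gm26337, all of 79 nt, between 59353283 and 59423133. Their peaks were 77 or 78 nt wide on the minus strand, the strand of Snhg14, and covered 97.5% to 98.7%. The span holds 128 unnamed genes of that length, these 4 included. Such arrays consist of near-identical copies, and whether a read could be placed in 1 copy was not tested, so the assignment to these 4 copies is uncertain. The 17 named Snord116 copies, at 59861731 to 59904848 in the same span, and Snord64 carried 0 peaks, so that 0 of the 18 listed genes of the imprinted clusters did under their Snord names.

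Rian (chromosome 12, 109603945 to 109661716), the maternally expressed host in the Dlk1-Dio3 region, held 11 snoRNA genes and 4 had a peak. AF357425 had a peak of 67 nt on 69 nt, DQ267100 one of 66 nt on 71 nt, AF357355 one of 65 nt on 71 nt, and AF357359 the wide one described above. The other 7, including AF357426, DQ267101 and DQ267102, had none. Gm23736, of 75 nt with a peak of 73 nt, lies beyond the annotated end of Rian on the same strand.

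Many snoRNA hosts belong to the class of translation genes whose transcripts are known to start with a run of pyrimidines, the terminal oligopyrimidine class. The bases at the transcription start were therefore read for the 34 hosts in the RefSeq promoter table (GRCm38.p6). All of the first 5 transcribed bases were C or T in at least 1 listed start for 7 hosts (20.6%), against 1426 of 27025 genes of the table (5.28%). This is a description without a test, and annotated starts that are a few bases off change the match. Of the ribosomal protein hosts read, only Rpl7a matched. Rpl4, Rpl13, Rpl13a, Rpl37, Rps12 and Rps3a1 did not, nor did the translation factor gene Eef2. The match therefore did not pick out the translation genes among the hosts. The 7 windows are shown with the 20 bases before the start in lower case and the first 10 transcribed bases in capitals.
Rpl7a, chr2:26910787-26910816, plus strand: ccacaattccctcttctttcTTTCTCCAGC
Rack1, chr11:48800340-48800369, plus strand: tccggcggaggccgctctttCTTTTTCTCC
Gas5, chr1:161035146-161035175, plus strand: gactcagccgccatctcagcCTTTCGGAGC
Snhg12, chr4:132308658-132308687, plus strand: gtgcaggccgttctcagtccTTTCTCGCTT
Rab26os, chr17:24528231-24528260, plus strand: gagcctcgcgagcagtcgctCTTTTTGGGA
Gm36220, chr11:106500895-106500924, plus strand: ggccacacgtccattccggcCTCTTATCGA
1110038B12Rik, chr17:34952459-34952488, minus strand: gaggcgggcggcacacgggtCTCTTTGTGC
Of these 7 hosts, 5 are lncRNA genes, and Rpl7a and Rack1 encode parts of the ribosome.

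The miRNA libraries were read for mature miRNAs whose genes overlap a snoRNA or Scarna gene by position. Their origin from those RNAs was not tested. The libraries held 66854 and 75658 counts in replicates 1 and 2, where a count of 0 allows a share of up to 0.00449% and 0.00397%. Over snoRNA genes lay 4 miRNA genes with 6 mature forms, which together took 22 and 27 counts, or 0.0343% ± 0.00197 of all counts (SD, n = 2). miR-664-3p had 18 and 17 counts (0.0247% ± 0.00315, SD, n = 2). By mean share it had rank 215 of the 1978 listed miRNAs, of which only 554 had a count. miR-664-3p lies at chr1:185243012-185243033 on the plus strand, wholly within Snora36b, an H/ACA gene. miR-664-5p, from the other arm, had 0 and 8 counts, so that the libraries differed at this low depth. miR-3084-3p had 4 and 2 counts; it lies over Snora19, and a second hairpin gene, Mir3084-1, gives the same mature form. miR-5121 over Snord33 and miR-1291 over Snora34 had 0 counts in both libraries.

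Over Scarna genes lay 3 more miRNA genes with 6 mature forms and 9 and 11 counts (0.0140% ± 0.000762, SD, n = 2). miR-1843a-5p, over Scarna3b, had 7 and 6 counts, and miR-1843a-3p 2 and 3. miR-1843b-5p, over Scarna3a, had 0 and 2, and both arms of miR-3069 in Scarna13 had 0. Whether reads of miR-1843b-5p could be told from those of the similar miR-1843a-5p was not tested. None of the snoRNA or Scarna genes that overlap a miRNA gene carried a target peak. The miRNAs with counts lay over H/ACA and Scarna genes, and none of those named Snora or Scarna was among the 79 genes with a peak. A list of snoRNAs known for miRNA-like products was matched by symbol only. Snora36b and Snord93 were the snoRNA genes found under their listed names, and 0 of these 2 had a peak. Genes of the list annotated under LOC or Gm symbols would be missed, so the count says nothing about the rest of the list.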

How the data were processed

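Libraries were made from cortex at postnatal day 14. The submitters' processing notes name mm10, STAR 2.5.2a with Bowtie2 2.4.2, UMI-tools, deepTools 3.1.3, cutadapt 2.10 and also DESeq2 1.36.0, with no role or order. Which peak caller was run, and on which libraries, is not given in the sources used here. Deposited by the authors were 1 peak list, whose score is 0 for every peak, and whole-number counts per mature miRNA without normalization; by the name given to the deposited counts, duplicates were kept. A row for unassigned reads held 0 counts and was left out.

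Peaks were matched by midpoint to gene spans of the RefSeq table of GRCm38.p6, chromosomes 1 to 19, X and Y, with Python 3.11.15, pandas 2.3.3 and scipy 1.17.1. The span table gives no strand, so offsets follow the strand of the peak and host strands come from the promoter table (10 of 44 hosts are not in it). For gene shares, peaks in small RNA genes were not credited to hosts. Intervals are exact (Clopper-Pearson), treat genes as independent and cover counting error only. No test between groups was run, because peaks have no replicates and the counts form 1 group; labels do not say whether replicates came from separate animals. Matching and offsets were checked on simulated peaks. Coordinates count from 1. Members, lists and comparisons were chosen with earlier results of these data known. Named were the widest and narrowest peaks, the extreme ratios of width to length, listed genes, hosts with at least 2 peak-bearing genes and miRNAs counted in both libraries. Other names were chosen after their values were seen. Some genes are counted in the totals but not reported here by name.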

Additional observations from a re-analysis of the deposited data

How the results depend on the processing

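Counting any overlap gave 79 peaks and genes, at least 50% of the peak 78, peaks of at least 30 nt 78, and adding guide RNA genes, an alternative added after seeing the data, 80. With the whole peak required inside the span, 42 peaks were left, since many Snord peaks pass the annotated start. The share of Snord genes with a peak was 53.0% with copies of a family counted once; over all snoRNA genes up to 100 nt, also added later, it was 18.8%, since most of these have no class in their symbol. Also added later, the median ratio of width to length was 1.11 for Snord genes (quartiles 0.946 and 1.18) and 0.958 for the others (0.924 and 0.973). Read at the 5′ end of the peak instead of its midpoint, the median position was 2.31% of the gene. Protein-coding spans alone held 51 of the 79 genes. Without Snhg14, also added later, the share of genes with a peak was 16.3% in lncRNA spans, against 7.46% with it, and 37.9% in listed hosts, against 16.0%. The miRNA share was 0.0357% without replicate 1 and 0.0329% without replicate 2, 0.0395% without miR-128-3p in the denominator, and 0 when hairpins had to lie wholly inside the snoRNA gene, which none of the 4 does. Positions by gene strand were not run, because the tables used here give no strand for snoRNA genes. Peak heights and depth of the target libraries were not analysed here, so a gene without a peak is not shown to lack AGO2.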

Other observations

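Several peaks of snoRNA size lay in host genes outside annotated snoRNA spans. In Gas5, a peak of 69 nt (chromosome 1, 161037364 to 161037432, plus strand) lay 169 nt from the nearest annotated snoRNA gene, LOC115487645. Rian had 2 peaks of 62 nt each (chromosome 12, from 109649182 and from 109654301), 374 and 265 nt from DQ267100 and AF357355. In 1110038B12Rik, a peak of 72 nt on the minus strand (chromosome 17, 34952239 to 34952310) lay 164 nt from LOC115488834. In Atp5b, peaks of 71 and 70 nt lay 80 and 179 nt from Snord59a, itself under a peak of 71 nt. What RNA these peaks hold was not tested.

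Narrow peaks of 34, 39 and 23 nt followed AF357359 in Rian within 56 to 197 nt of its annotated end. Snord73b, inside Rps3a1, is typed as snRNA in the table and so fell outside the rule. Its 71 nt carried a peak of 68 nt; Snord73a, in the same host, had 65 nt on 68 nt. The RNA component of RNase MRP, Rmrp, which takes part in ribosomal RNA processing, had a peak of 67 nt that covered 24.0% of the gene.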
